A study of Mus musculus with 32 samples.

Results

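Cxcl1, Cxcl2, Cxcl3, Cxcl5 and Ccl20 are 5 chemokine genes among the 25700 genes counted in mouse tendon assembloids. They were chosen by their symbols with earlier results of these data known. Counts of members beside shares of all genes are therefore descriptions. All 5 were counted in every one of the 32 samples. The members differed in which compartment had the higher level. Cxcl1, Cxcl3 and Cxcl5 were higher in the hydrogel pool than in the core pool of the same title code in each of 8 pairs. Cxcl2 and Ccl20 were higher there in 2 of 8 each. In tests without pairing, 3 members passed as higher in the hydrogel under the WT label and 2 under the KO label. This held for 18.1% and 17% of all genes tested. Cxcl2 and Ccl20 passed in neither of these tests. All 5 had a higher fitted level in cores and hydrogels labelled KO than in WT ones. For Cxcl5 in the hydrogel and Cxcl3 in cell-free cores this direction rested on 1 library. With an unadjusted p under 0.05 and an absolute log2 fold change above 0.5, 2 members passed in the hydrogel and 2 in cores with fibroblasts. Of all genes tested, 0.755% and 2.44% did. At an adjusted p under 0.05 in edgeR, no gene passed in these settings or in cell-free cores.

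An assembloid joined a core explant, a fascicle of mouse tail tendon, to a collagen-1 hydrogel around it. Cores were wildtype (WT) or came from mice homozygous for the Il6 knock-out allele B6.129S2-Il6tm1Kopf/J (KO), and were co-cultured for 7 days with a cell-free hydrogel, with Achilles tendon fibroblasts that the labels call progenitors, or, for WT cores, with macrophages. The mice were 12 to 15 weeks old and of both sexes. RNA of the cores was sequenced for WT core // cell-free, WT core // fibroblasts, WT core // macrophages, KO core // cell-free and KO core // fibroblasts (n = 4 each), and RNA of the hydrogel for WT core // fibroblasts and KO core // fibroblasts (n = 6 each). Each core sample pooled 20 to 24 explants from a single mouse. Core and hydrogel pools were paired by a code shared by their sample titles, called the assembloid code. Each hydrogel sample pooled 2 hydrogels and held both the seeded fibroblasts, which were Il6+/+ and mixed from 6 mice, and migrated core cells, so a KO label describes the core and not all cells in the hydrogel. All groups shared the culture medium, which contained serum, ascorbic acid and macrophage colony-stimulating factor. The sources used here do not say from which tissue the macrophages came.

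Chemokines are small secreted proteins that direct the migration of cells carrying matching receptors. Cxcl1, Cxcl2, Cxcl3 and Cxcl5 belong to the CXC chemokines that attract neutrophils, mainly through the receptor Cxcr2. Ccl20 attracts lymphocytes and dendritic cells that carry Ccr6. Fibroblasts, epithelial cells and macrophages make these chemokines in response to interleukin-1, tumor necrosis factor and interleukin-17, through transcription factors such as NF-kappaB and through control of the stability of their mRNAs, many of which are short-lived.

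The CXC members lie in a cluster on chromosome 5, in the order Cxcl5, Ppbp, Pf4, Cxcl3, Cxcl15, Cxcl1, Cxcl2, and Ccl20 lies on chromosome 1. Promoter sequences from RefSeq (assembly GRCm38.p6) were found for 4 of the 5 members, namely Cxcl1, Cxcl2, Cxcl3 and Ccl20. Each sequence covers the 120 bases before the annotated start on the plus strand. Whether these sequences bear on the levels was not tested. Capitals mark an NF-kappaB type motif, GGGAA, any 3 bases and CC, searched on both strands, and a TATA type motif, ATAAAAGG, searched alike. Matches on the 2 strands overlap within GGGAATTTCCC.
Cxcl1, chr5:90891125-90891244: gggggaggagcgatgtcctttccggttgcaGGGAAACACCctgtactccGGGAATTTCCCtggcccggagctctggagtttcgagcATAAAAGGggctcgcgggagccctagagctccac
Cxcl2, chr5:90903779-90903898: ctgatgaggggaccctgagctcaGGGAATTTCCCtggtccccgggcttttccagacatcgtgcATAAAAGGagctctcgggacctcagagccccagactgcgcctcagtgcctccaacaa
Cxcl3, chr5:90785981-90786100: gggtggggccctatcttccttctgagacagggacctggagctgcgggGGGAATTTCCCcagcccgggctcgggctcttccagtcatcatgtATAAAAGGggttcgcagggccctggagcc
Ccl20, chr1:83116646-83116765: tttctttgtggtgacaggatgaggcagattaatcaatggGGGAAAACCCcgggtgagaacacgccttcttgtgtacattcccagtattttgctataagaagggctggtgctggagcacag
Cxcl1, Cxcl2 and Cxcl3 carried the same run of letters, GGGAATTTCCC, upstream of ATAAAAGG. Cxcl1 carried another match, GGGAAACACC, further upstream, and Ccl20 carried GGGAAAACCC on the plus strand alone. Of 32851 promoters of 300 bases in the same table, 5.78% held the NF-kappaB type motif and 1.76% the TATA type motif. The motifs were not chosen independently of these genes, and a match is a description of letters, not of a bound site.

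Total counts were 20.4M to 41.9M per core sample and 25.1M to 59.9M per hydrogel sample (M for mega), and levels are given as CPM, the count of a gene for each M of that total. Il6, the targeted gene, was not lower under the KO label. Its level was 8.01 ± 3.34 CPM (SD, n = 4) in WT core // fibroblasts and 19.9 ± 10.6 CPM (n = 4) in the cores labelled KO // fibroblasts, so groups are called labelled KO and each direction between genotypes rests on those labels. Counts per gene do not show which part of Il6 was read or whether a transcript was intact. A level of Il6 counts therefore does not by itself contradict a disrupted allele. The study assayed IL-6 protein in culture supernatants and describes the IL-6 levels of assembloids with KO cores as reduced. Protein was not analysed here. All 12 macrophage markers of a fixed list were present at 1 CPM or more on average in every group, also in cell-free assembloids, as were all 10 tendon fibroblast markers. In bulk RNA, fewer cells of a type and less RNA per cell cannot be told apart. Hydrogel replicate 6 labelled KO had the highest level of all 5 members among its 6 samples, and KO core // cell-free replicate 4 among its 4. The comparisons of genotype labels are also given without them. The titles of both libraries carry the codes 154 and N2. So does that of KO core // fibroblasts replicate 4, the highest of its 4 samples for 3 members, so these libraries are not independent of each other. By the level of 4 Y-linked transcripts, each core group split into 2 high and 2 low samples, and each hydrogel group into 3 and 3. The sample titles give no sex. A hydrogel sample mixed cells of several mice, so there the split is not the sex of 1 animal.

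Per kilobase of transcript, Cxcl5 was the most abundant member in every group and Cxcl1 the next. In the hydrogels of WT cores, Cxcl5 stood at 325.1 ± 67.0 CPM per kilobase (SD, n = 6), Cxcl1 at 44.3 ± 9.0 CPM per kilobase, Cxcl3 at 1.78 ± 0.61 CPM per kilobase, Cxcl2 at 0.852 ± 0.289 CPM per kilobase and Ccl20 at 0.755 ± 0.177 CPM per kilobase. In the matched WT core // fibroblasts, Cxcl3 had the lowest level, at 0.550 ± 0.268 CPM per kilobase (SD, n = 4), below Cxcl2 at 1.12 ± 0.23 and Ccl20 at 1.17 ± 0.58 CPM per kilobase. Between all 32 samples the levels ranged from 44.7 to 1551 CPM for Cxcl5, from 7.70 to 186 CPM for Cxcl1, from 0.814 to 17.4 CPM for Cxcl2, from 0.246 to 7.30 CPM for Ccl20 and from 0.191 to 6.35 CPM for Cxcl3, whose lowest sample held 7 counts. Of the transcript sequence of Cxcl2 and Cxcl3, 4.37% and 8.11% of 31-base words were shared between these 2 genes, so a small part of their estimated counts could be split between them. Cxcl5 shared 4.47% with other genes, and Cxcl1 and Ccl20 shared none with any gene.

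The order of the group means differed between members. Cxcl1, Cxcl3 and Cxcl5 were highest in the hydrogels labelled KO and next in the hydrogels of WT cores. Cxcl2 was highest in KO core // cell-free (8.12 ± 6.49 CPM, SD, n = 4) and lowest in the hydrogels of WT cores (1.58 ± 0.54 CPM, n = 6). Ccl20 was highest in KO core // cell-free (5.86 ± 1.01 CPM, n = 4) and lowest in WT core // macrophages (0.930 ± 0.694 CPM, n = 4). Neighbouring groups in these orders overlapped in their ranges for every member with 1 exception, Ccl20 in KO core // cell-free, whose lowest sample, 4.95 CPM, exceeded the highest sample of the next group, 3.93 CPM in WT core // cell-free.

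**Figure D1:**
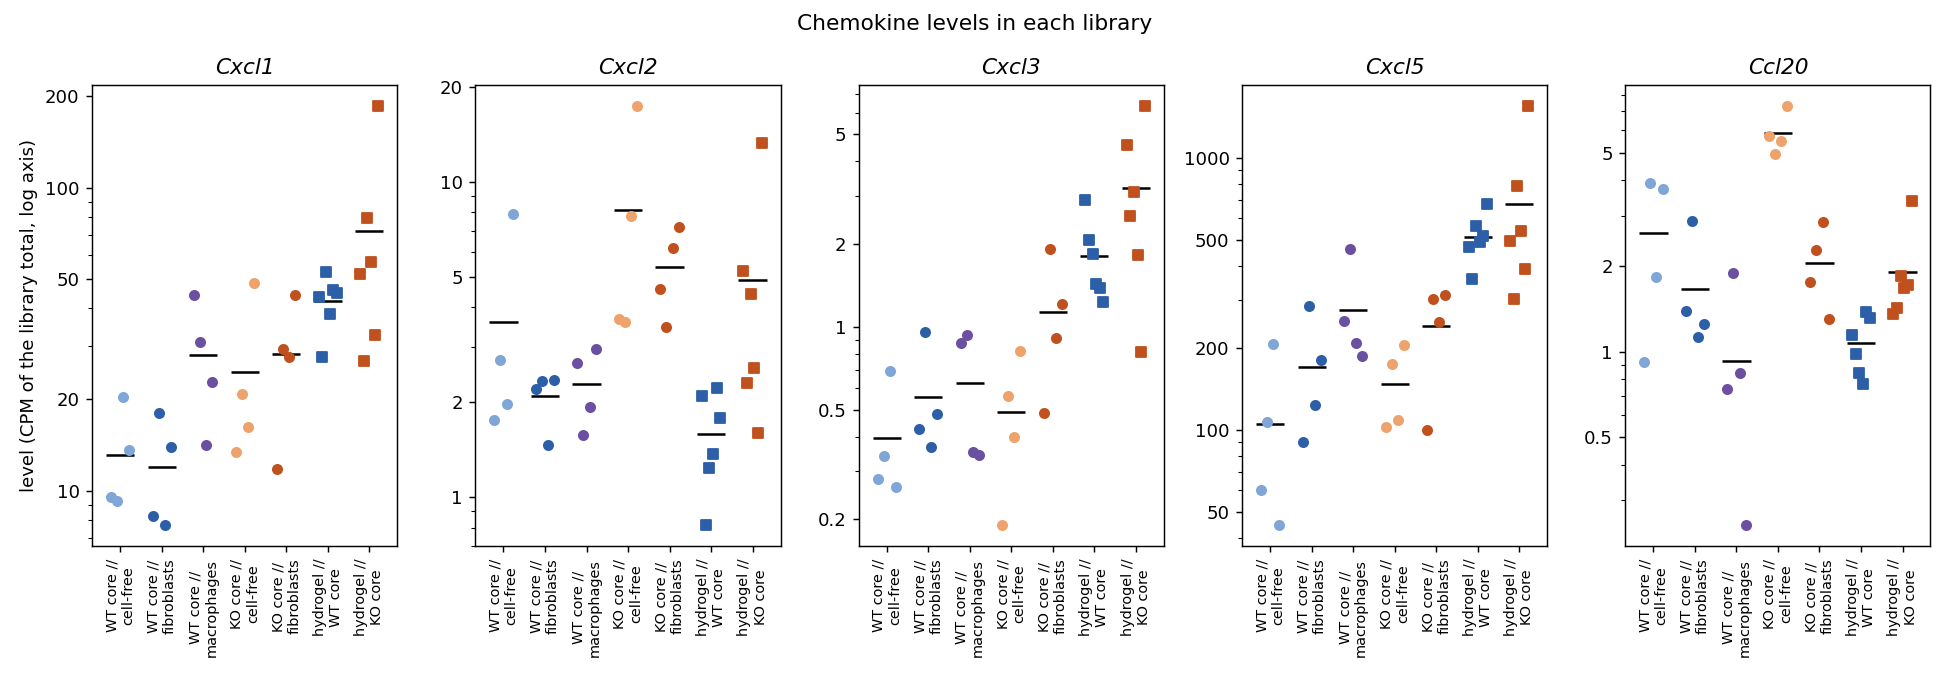
Level of each chemokine in every library, in CPM of the library total on a log axis, for the 5 core groups (circles, n = 4 each) and the 2 hydrogel groups (squares, n = 6 each), with the group mean as a black line. Cxcl1, Cxcl3 and Cxcl5 sat highest in the hydrogels, while Ccl20 sat highest in KO core // cell-free, where all 4 samples lay at or above 4.95 CPM.

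The first question was whether the Il6 label of the core went with the chemokine levels. It was asked in 3 settings, the hydrogel, cores with fibroblasts and cores in cell-free assembloids. All 5 members had a higher fitted level in the libraries labelled KO in each of the 3 settings, against 47.4%, 50.1% and 52.9% of all genes tested. For 2 members this direction rested on 1 library, since the log2 fold change was -0.02 for Cxcl5 in the hydrogel without KO replicate 6 and -0.12 for Cxcl3 in cell-free cores without KO replicate 4. The median log2 fold change of the 5 was 0.83 in the hydrogel, 0.95 in cores with fibroblasts and 0.95 in cell-free cores, and the median of all genes was -0.0075, 0.00039 and 0.0095. The median of the 5 was 0.52 in the hydrogel without KO replicate 6, 0.58 in cores with fibroblasts without KO replicate 2 and 0.34 in cell-free cores without KO replicate 4. The settings are not independent of each other, since 4 core pools of each label carried the same title codes as 4 of the 6 hydrogel pools. Deviations from the group mean also correlated between cell-free and fibroblast cores labelled KO of the same replicate number (r from 0.21 to 0.39). Il6 itself had log2 fold changes of 1.03 ± 0.44 (SE), 1.30 ± 0.39 and 0.79 ± 0.53 in the same direction. Of these settings, only the last, cell-free cores, had no seeded Il6+/+ fibroblasts.

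In cores with fibroblasts, Cxcl1 and Cxcl2 were higher in the libraries labelled KO by the rule of this comparison, an unadjusted p under 0.05 in edgeR's quasi-likelihood test together with an absolute log2 fold change above 0.5, which 2.44% of the 16088 genes tested passed. Cxcl2 was at 2.21, 2.34, 1.46 and 2.35 CPM in WT core // fibroblasts and at 4.57, 3.46, 6.15 and 7.21 CPM in the cores labelled KO, replicates 1 to 4 in order. Every sample labelled KO lay above every WT sample. The log2 fold change of Cxcl2 was 1.32 ± 0.25 (SE, unadjusted p = 0.000356, adjusted p = 0.457 over all genes in edgeR), and the exact two-sided permutation test gave p = 0.0286, the smallest that 4 against 4 samples allow. In this direction 2.25% of genes tested did not overlap between the groups. Cxcl1 was at 8.25, 18.1, 7.70 and 13.9 CPM in WT and at 11.8, 29.4, 27.7 and 44.3 CPM in the cores labelled KO. Its groups overlapped through replicate 1 labelled KO, the lowest of that group. The log2 fold change of Cxcl1 was 1.22 ± 0.39 (unadjusted p = 0.0105, adjusted p = 0.511 in edgeR), with an exact permutation p of 0.0857. Cxcl3 had a log2 fold change of 0.95 ± 0.44, Cxcl5 of 0.49 ± 0.39 and Ccl20 of 0.26 ± 0.30, none past the rule. No gene in this comparison passed an adjusted p of 0.05 in edgeR, while 1428 had an unadjusted p under it. Sample titles carry a number, 150, 152 or 154, which is called the run here although the titles do not say what it stands for. Cxcl2 differed by log2 values of 0.95 in run 150 and 1.61 in run 154, with 1 library per group each. In run 152, with 2 libraries per group, it differed by 1.25. Cxcl1 differed by 0.43, 1.68 and 1.23 in the same runs. Cxcl3 was also called without KO replicate 1 or without WT replicate 2, Cxcl5 without that KO replicate (log2 fold change 0.75), and Ccl20 without that WT replicate (0.62).

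In the hydrogel, Cxcl2 and Ccl20 passed the same rule, which 0.755% of 15227 genes tested passed. Both had an adjusted p of 0.9997 in edgeR, which was also the lowest of any gene in this comparison, so neither call held after adjustment. By the unadjusted p of the rule alone, 404 genes (2.65%) passed. Cxcl2 had a lowest, median and highest level of 0.814, 1.57 and 2.21 CPM around WT cores and of 1.59, 3.48 and 13.3 CPM around cores labelled KO (n = 6 each). The groups overlapped, since 3 of the WT values lay above the lowest KO value, that of replicate 5. Without hydrogel replicate 6 labelled KO the log2 fold change of Cxcl2 fell from 1.66 to 1.05 and the call held (unadjusted p = 0.0102 in edgeR). Within runs 150, 152 and 154, with 2 libraries per group each, Cxcl2 differed by log2 values of 1.36, 1.33 and 1.23. Ccl20 was between 0.768 and 1.38 CPM around WT cores and between 1.35 and 3.39 CPM around cores labelled KO. On the TMM-scaled log2 scale used for the test its groups did not overlap, which 0.0919% of genes tested did in this direction. Per library total, the lowest KO sample at 1.35 CPM lay just under the highest WT sample at 1.38 CPM. The log2 fold change of Ccl20 was 0.83 ± 0.25 (SE), and 0.58 without KO replicate 6 (unadjusted p = 0.00808 in edgeR). Within the 3 runs Ccl20 differed by 0.37, 1.07 and 0.85. Cxcl1 (0.80 ± 0.41), Cxcl3 (0.83 ± 0.42) and Cxcl5 (0.42 ± 0.35) did not pass. Without KO replicate 6 the log2 fold change of Cxcl5 was -0.02, that of Cxcl1 0.24 and that of Cxcl3 0.52. Without KO replicate 5 both Cxcl1 (0.97) and Cxcl3 (1.05) passed, Cxcl1 passed without KO replicate 2 (0.97), and Cxcl3 passed without KO replicate 4 (0.96) or WT replicate 1 (1.04). KO replicate 5 had the lowest summed level of the 12 macrophage markers among the hydrogels, 2128 CPM against 9675 CPM or more around WT cores. The part of these markers in the chemokine levels was not tested.

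In cell-free cores no member passed the rule for this comparison, an adjusted p under 0.05 together with an absolute log2 fold change above 0.5, and neither did any other gene (0% of 16065 tested, with 339 genes at an unadjusted p under 0.05 in edgeR). Ccl20 was at 0.919, 3.93, 1.83 and 3.74 CPM in WT core // cell-free and at 5.72, 4.95, 5.48 and 7.30 CPM in the cores labelled KO. These groups did not overlap, which 0.703% of genes did in this direction. Its log2 fold change was 1.21 ± 0.40 (SE, unadjusted p = 0.0130, adjusted p = 1.00 in edgeR, exact permutation p = 0.0286), and within runs 150, 152 and 154 it differed by log2 values of 2.67, 0.92 and 0.98. Cxcl2 was at 1.76, 2.71, 1.97 and 7.89 CPM against 3.67, 3.60, 7.80 and 17.4 CPM. The groups overlapped through replicate 4 of WT, and the log2 fold change was 1.18 ± 0.64. Within runs Cxcl2 differed by log2 values of 1.16, 1.15 and 1.16. Cxcl1 had a log2 fold change of 0.95 ± 0.43, Cxcl5 of 0.54 ± 0.44 and Cxcl3 of 0.29 ± 0.50. Without replicate 4 labelled KO the log2 fold change was 0.34 for Cxcl1, 0.43 for Cxcl2, 0.30 for Cxcl5 and 1.06 for Ccl20. Without replicate 4 of WT that of Cxcl2 was 2.00. For Cxcl2 both libraries were the highest of their group, and they carried the same run code. For Cxcl3 and Cxcl5 the WT library was the lowest of its group.

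Next, cores with fibroblasts in the hydrogel were compared with cell-free ones within each genotype label. The cell-free and fibroblast groups also served in the comparisons above, so these values share samples with them. In WT cores no member passed (2.61% of 16188 genes tested did), and none had an unadjusted p under 0.05 in edgeR. Cxcl5 was at 60.0, 107, 208 and 44.7 CPM in WT core // cell-free and at 89.9, 286, 123 and 180 CPM in WT core // fibroblasts, with overlapping groups and a log2 fold change of 0.80 ± 0.46 (SE). Ccl20 had a log2 fold change of -0.56 ± 0.45. In the same comparison 11 of 12 macrophage markers had lower fitted levels beside fibroblasts, 3 of them at an adjusted p under 0.05 (1.83% of all genes), and 9 of 10 tendon fibroblast markers had higher ones, 1 of them past that threshold (2.46% of all genes). Their part in the chemokine levels was not tested.

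In the cores labelled KO, Ccl20 fell with fibroblasts, as 1 of 69 genes that passed (0.432% of 15965 tested). Its 4 values in cell-free assembloids, 4.95 CPM and above, dropped to 1.75, 2.27, 2.85 and 1.30 CPM. The groups did not overlap, which 2.87% of genes did in this direction. The log2 fold change was -1.50 ± 0.24 (SE, adjusted p = 0.0355 in edgeR, exact permutation p = 0.0286). Within runs 150, 152 and 154 the difference was -1.73, -0.94 and -2.37 on the log2 scale. The call was lost without any 1 of 6 of the 8 libraries, with log2 fold changes from -1.68 to -1.35 over the 8 fits and adjusted p-values up to 0.106 (without cell-free replicate 1, 3 or 4, or fibroblast replicate 1, 2 or 4), and in 1 fit of all 7 groups (adjusted p = 0.0530 in edgeR). Of 12 macrophage markers, 10 also had lower fitted levels beside fibroblasts in these cores, with a median log2 fold change of -0.39 and 0 at an adjusted p under 0.05 in edgeR (2 at an unadjusted one), and 6 of 10 tendon fibroblast markers had higher ones. Their part in the fall of Ccl20 was not tested. Cxcl3 (1.26 ± 0.51, unadjusted p = 0.0337, adjusted p = 0.370 in edgeR), Cxcl5 (0.75 ± 0.36), Cxcl1 (0.23 ± 0.47) and Cxcl2 (-0.58 ± 0.50) did not pass. The difference between the genotype labels in the response of Ccl20 was a log2 value of -0.94 ± 0.54 (SE, unadjusted p = 0.0983, adjusted p = 0.985 in edgeR's interaction term), so the response of Ccl20 was not shown to differ between them. No member, and no other gene of 16772 tested (0%), passed in this term, while 504 genes had an unadjusted p under 0.05.

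Macrophages in the hydrogel were compared with cell-free and with fibroblast-laden hydrogels around WT cores. Cxcl1 was at 9.51, 9.26, 20.3 and 13.6 CPM in WT core // cell-free, at 8.25, 18.1, 7.70 and 13.9 CPM beside fibroblasts and at 44.4, 30.9, 14.1 and 22.8 CPM beside macrophages. The macrophage group overlapped with both through its replicate 3. Against cell-free, Cxcl1 had a log2 fold change of 0.95 ± 0.33 (SE, adjusted p = 0.130 in edgeR), Cxcl5 of 1.31 ± 0.45 (adjusted p = 0.125) and Ccl20 of -1.54 ± 0.57 (adjusted p = 0.150), and none of the 4 members tested passed, where 4.6% of 16441 genes did. Within runs 150, 152 and 154 Cxcl1 differed by log2 values of 1.96, 0.57 and 0.64 and Ccl20 by -0.52, -1.07 and -3.68. Cxcl3 did not pass the filter on low counts there, with 7 to 29 counts per library beside macrophages. In the fit blocked by replicate number, since the numbers paired these samples, Cxcl5 passed (1.48, adjusted p = 0.0447 in edgeR), and it also passed without cell-free replicate 3 (1.88). Ccl20 was at 0.736, 1.90, 0.843 and 0.246 CPM beside macrophages, the lowest of these samples holding 5 counts. Against fibroblasts, Cxcl1 had a log2 fold change of 1.02 ± 0.33 (adjusted p = 0.0525) and none of the 5 passed, where 10.8% of 16370 genes did. With the block Cxcl1 (1.00, adjusted p = 0.0228) and Ccl20 (-1.07, adjusted p = 0.0378 in edgeR) passed. Without fibroblast replicate 2, macrophage replicate 3 or macrophage replicate 4 Cxcl1 passed without a block, and without macrophage replicate 2 Ccl20 did. Markers of other cells moved with these groups. Of 12 macrophage markers, 10 had lower fitted levels beside macrophages than in cell-free cores, with a median log2 fold change of -0.51. At an adjusted p under 0.05, 2 were lower, Itgam and Cd14 (4.65% of all genes). The summed level of the 12 was 6594 to 12714 CPM against 10870 to 14481 CPM. Against fibroblasts 5 of 12 were higher, with 1 higher and 2 lower at an adjusted p under 0.05 (8.85% and 10.7% of all genes). T cell markers summed to 20.3 to 55.9 CPM beside macrophages, 3.68 to 23.8 CPM in cell-free cores and 5.98 to 10.4 CPM beside fibroblasts, mostly from Cd4. The sum of 12 neutrophil markers was 21.8 to 35.5 CPM beside macrophages against 6.38 to 14.5 CPM in the other cores, and this rise was in Csf3r, at 25.8 ± 7.5 CPM (n = 4) against 7.28 ± 2.66 CPM in cell-free cores. Of the other neutrophil markers tested, S100a8 was lower than in cell-free cores (1.06 to 0.359 CPM) and fibroblast ones, Camp was lower than beside fibroblasts (1.89 to 0.938 CPM), each at an adjusted p under 0.05 in edgeR, and Ly6g was at most 0.138 CPM. The part of these cells in the chemokine levels was not tested.

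**Figure D2:**
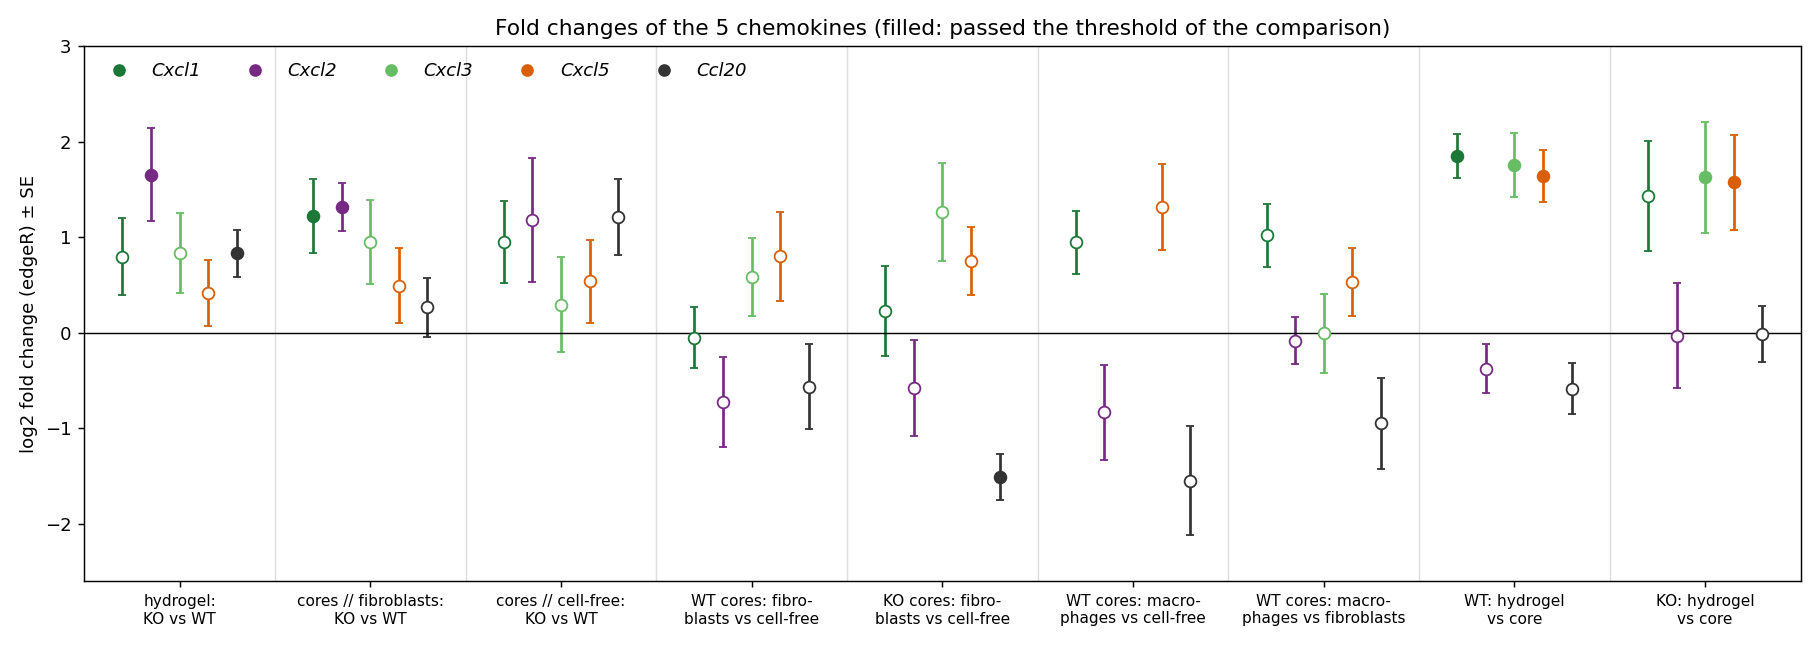
Log2 fold change of each chemokine in 9 comparisons (edgeR, error bars 1 SE), with filled symbols where it passed the threshold of the comparison. All 5 symbols lay above 0 in the 3 comparisons of KO with WT labels, and in the comparisons of hydrogel with core Cxcl1, Cxcl3 and Cxcl5 lay between 1.43 and 1.85 while Cxcl2 and Ccl20 lay between -0.59 and -0.01, with values near 0 in assembloids labelled KO whose sign changed under other settings. Cxcl3 was not tested for macrophages against cell-free.

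The 2 compartments of the assembloid were compared within each genotype label. In WT assembloids Cxcl1, Cxcl3 and Cxcl5 were higher in the hydrogel, where 42.8% of 16037 genes passed in either direction and 18.1% were higher. Cxcl1 was between 27.6 and 52.7 CPM in the hydrogel (median 44.2 CPM, n = 6) and between 7.70 and 18.1 CPM in the core (n = 4). Its groups did not overlap, as was the case for 26.3% of genes in this direction. Cxcl5 was between 358 and 677 CPM in the hydrogel against 89.9 to 286 CPM in the core, and Cxcl3 between 1.24 and 2.90 CPM against 0.365 to 0.960 CPM, also without overlap. The log2 fold changes were 1.85 ± 0.23 for Cxcl1 (SE, adjusted p = 2.70e-05), 1.75 ± 0.33 for Cxcl3 (adjusted p = 0.000551) and 1.64 ± 0.27 for Cxcl5 (adjusted p = 0.000208 in edgeR), and each had an exact permutation p of 0.00476, the smallest for 6 against 4. Neither test paired core and hydrogel pools of the same title code. Cxcl2 (-0.37 ± 0.26) and Ccl20 (-0.59 ± 0.27, adjusted p = 0.0701 in edgeR) did not pass. With the assembloid code as a block, which pairs core and hydrogel pools, Cxcl2 passed as lower in the hydrogel (-0.65, adjusted p = 0.0220 in edgeR). Without a block and without core replicate 3, Ccl20 did (-0.72, adjusted p = 0.0415 in edgeR). Within runs the log2 difference was 1.66 to 2.12 for Cxcl1, 1.31 to 2.44 for Cxcl3 and 1.53 to 2.24 for Cxcl5.

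In assembloids labelled KO the same 3 members had the larger values in the hydrogel. Cxcl3 (1.63 ± 0.58, adjusted p = 0.0338) and Cxcl5 (1.57 ± 0.50, adjusted p = 0.0199 in edgeR) passed, where 41.6% of 16084 genes did, and Cxcl1 (1.43 ± 0.57, adjusted p = 0.0545) did not. With the assembloid code as a block Cxcl1 passed too (1.52, adjusted p = 6.05e-05). Within runs the log2 difference was 0.79 to 1.81 for Cxcl1, 0.88 to 2.80 for Cxcl3 and 1.29 to 2.11 for Cxcl5. Without a block, Cxcl3 lost the call in 6 of 10 fits that left out 1 library (adjusted p up to 0.0943) and Cxcl5 in 2 of 10, without core replicate 1 (1.32, adjusted p = 0.0521) or core replicate 3 (1.56, adjusted p = 0.0507 in edgeR), and Cxcl1 gained it in 3 of 10. Cxcl2 (-0.03 ± 0.55) and Ccl20 (-0.01 ± 0.29) stayed near 0. Whether the step from core to hydrogel differed between the genotype labels was not tested.

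Within pairs of pools, hydrogel over core was 2.05 to 4.97 for Cxcl1 (median 3.07), 1.62 to 5.25 for Cxcl3 (median 3.25) and 1.96 to 4.97 for Cxcl5 (median 3.39). For each of them it was above 1 in 8 of 8 pairs. For Cxcl2 the ratio was 0.369 to 1.84 and above 1 in 2 of 8, both labelled KO, and for Ccl20 it was 0.291 to 2.61 and above 1 in 2 of 8. Macrophage and fibroblast markers also differed between the compartments. All 12 macrophage markers had higher fitted levels in the hydrogel under both labels, with 9 at an adjusted p under 0.05 in WT assembloids (33.9% of all genes) and 0 in those labelled KO in edgeR (25.5% of all genes, and 0 markers at an unadjusted p under 0.05), and the 10 tendon fibroblast markers were lower with 1 exception under both labels, 8 of them past that threshold in WT and 5 in those labelled KO (35.4% and 30.2% of all genes). In WT assembloids the summed macrophage markers were 9675 to 16747 CPM in the hydrogel against 8638 to 10025 CPM in the core. The part of this makeup in the chemokine levels was not tested.

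**Figure D3:**
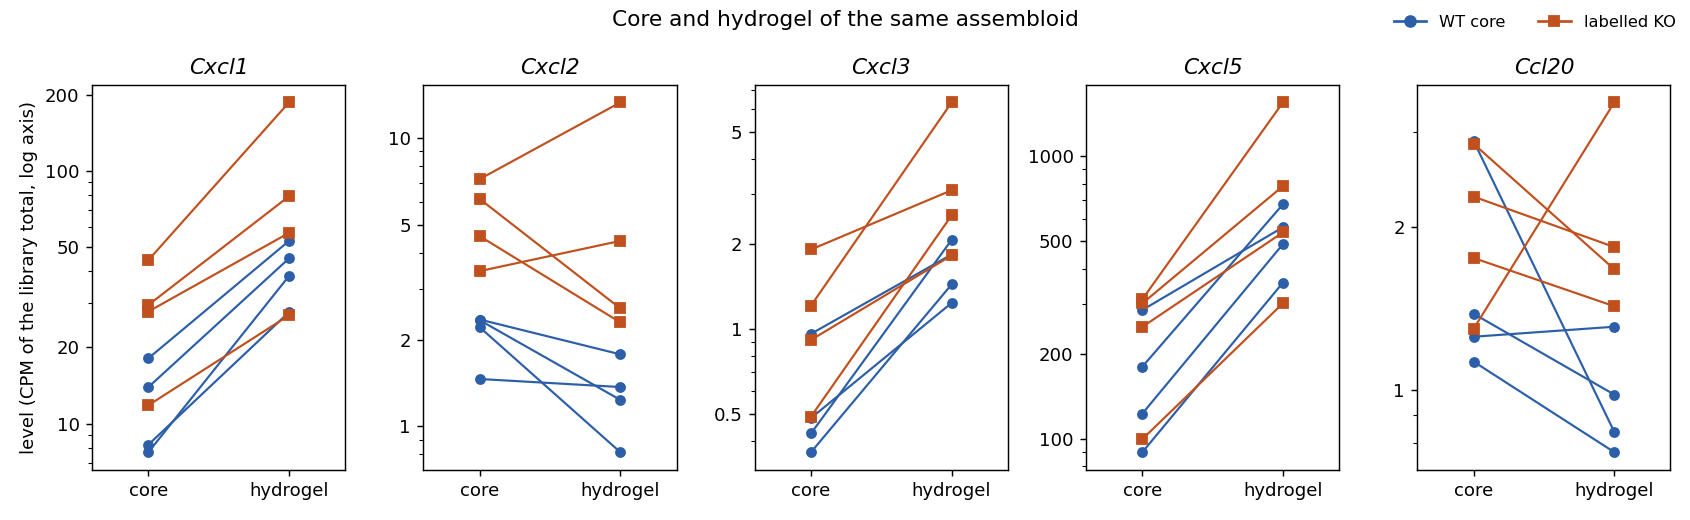
Level in core and hydrogel pools of the same title code, in CPM of the library total on a log axis. There is 1 line for each of 4 WT pairs (circles) and 4 labelled KO (squares). Every line rises from core to hydrogel for Cxcl1, Cxcl3 and Cxcl5, whereas 6 of 8 lines fall for Cxcl2 and for Ccl20.

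The members also varied between samples of the same group. With the mean of each group taken off the log2 CPM, Pearson's r over the 32 samples was 0.81 between Cxcl1 and Cxcl5, 0.72 between Cxcl1 and Cxcl3 and 0.69 between Cxcl3 and Cxcl5. These are descriptions over samples that share runs, mice and, for Cxcl2 with Cxcl3, some transcript sequence. In the 20 cores Cxcl2 had an r of 0.47 to Cxcl1, 0.21 to Ccl20, 0.11 to Cxcl3 and -0.09 to Cxcl5. In the 12 hydrogels the r of Cxcl2 to Cxcl5 was 0.84. The r of the hydrogels rested in part on replicate 6 labelled KO. Without it (n = 11) r was 0.93 between Cxcl1 and Cxcl5 and between 0.62 and 0.69 for Cxcl2 with the other CXC members. It fell from 0.61 to 0.36 between Cxcl1 and Cxcl3 and from 0.52 to 0.19 between Cxcl3 and Cxcl5. The r of Ccl20 fell from 0.70 to 0.19 with Cxcl1, from 0.72 to 0.32 with Cxcl2, from 0.37 to -0.11 with Cxcl3 and from 0.74 to 0.30 with Cxcl5. Ccl20 had r between 0.19 and 0.33 to the other members in the cores.

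**Figure D4:**
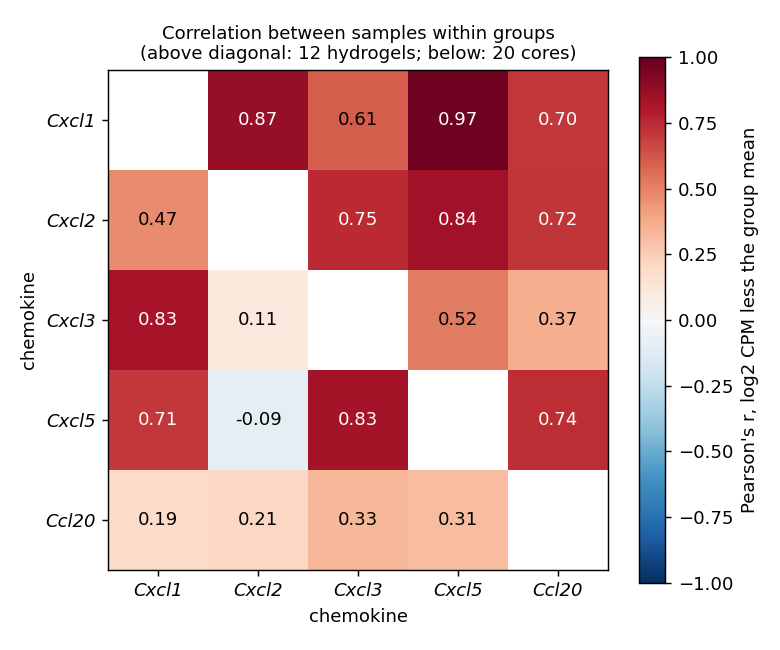
Pearson's r between chemokines over samples, from log2 CPM less the mean of the sample's group, for 12 hydrogels (above the diagonal) and 20 cores (below it). In the cores Cxcl1, Cxcl3 and Cxcl5 form a block with r from 0.71 to 0.83, and in the hydrogels r ranges from 0.37 to 0.97, or from -0.11 to 0.93 without replicate 6 labelled KO.

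The genes whose variation within groups was most like that of each member differed between members. Il6 was the most like Cxcl1 among 14981 genes (r = 0.89 over 32 samples, 0.85 in the cores and 0.95 in the hydrogels), followed by Serpina3i (0.86), a serine protease inhibitor gene, and Mtf2 (0.85). Slc7a2 (0.84), an arginine transporter, Tnfaip3 (0.83), an inhibitor of NF-kappaB signalling, and Ccl7 (0.79), a monocyte chemokine, were the most like Cxcl2. Adora2b (0.88), an adenosine receptor, Slc39a14 (0.87), a zinc transporter, and Lpgat1 (0.83) were the most like Cxcl3. Cyp7b1 (0.83), an oxysterol hydroxylase, Fgf7 (0.82), a fibroblast growth factor, and Npy1r (0.80), a neuropeptide Y receptor, were the most like Cxcl5. S1pr3 (0.86), a sphingosine-1-phosphate receptor, Lrrc8e (0.76), a subunit of volume-regulated anion channels, and Rasl12 (0.75) were the most like Ccl20. To the mean of the 5, Serpina3i (0.87), Kcnf1 (0.85), a potassium channel subunit, and Ptgs2 (0.85), the inducible prostaglandin synthase, were nearest. Il6 had an r of 0.69 to Cxcl5, 0.68 to Cxcl3, 0.53 to Cxcl2 and 0.04 to Ccl20.

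The receptors of these chemokines were near or at 0. Cxcr2 had at most 6 counts and Ccr6 at most 5 counts in any core, both were at 0 in all 6 hydrogels labelled KO, and neither passed the filter on low counts in any comparison. The neutrophil growth factors Csf3 and Csf2 summed to at most 1.51 CPM. Of 12 neutrophil markers, Ly6g and S100a9 were at 0 in all 12 hydrogels, while 3 averaged 1 CPM or more. Their sum was 8.41 to 18.9 CPM in the hydrogels. Under each label 4 were tested between hydrogel and core, and 3 had higher fitted levels in the hydrogel. Of these, 2 had an adjusted p under 0.05 in edgeR (33.9% of all genes in WT and 25.5% in those labelled KO).

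Of the genes that act upstream, 14 regulators of transcription and mRNA decay were listed, also with earlier results of these data known. In cores with fibroblasts, 14 of 14 had a higher fitted level in the libraries labelled KO (50.1% of all genes), 10 of them at an unadjusted p under 0.05 and 0 at an adjusted one, against 4.64% of all genes higher at an unadjusted p. Fos had a log2 fold change of 0.90 ± 0.10 (SE, unadjusted p = 4.50e-06, adjusted p = 0.0723 in edgeR), Nfkbiz, a co-activator of NF-kappaB targets, of 0.52 ± 0.12, Tnfaip3 of 0.50 ± 0.13 and Zfp36, which promotes the decay of chemokine mRNAs, of 0.43 ± 0.11. The median over the list was 0.36, while that of the 5 chemokines was 0.95. In the hydrogel 12 of 14 were higher around cores labelled KO with 0 past an unadjusted p of 0.05, and in cell-free cores 9 of 14 with 1 past it, Fos at 0.76 ± 0.30 (1.18% of all genes). In WT assembloids 6 were higher and 1 lower in the hydrogel than in the core at an adjusted p under 0.05 (33.9% and 35.4% of all genes), among them Jun (0.96 ± 0.09) and Cebpb (1.12 ± 0.15).

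Of 11 upstream cytokines and receptors, 1 was higher and 2 were lower beside macrophages than in cell-free WT cores at an adjusted p under 0.05 (1.03% and 4.65% of all genes). Il1b had a log2 fold change of 4.22 ± 0.71 (SE, adjusted p = 0.0107), Tnf of -2.77 ± 0.34 (adjusted p = 0.00330) and Il1rn, the interleukin-1 receptor antagonist, of -1.996 ± 0.25 (adjusted p = 0.00330 in edgeR). Il1b was at 0.996 to 5.61 CPM beside macrophages and at no more than 0.291 CPM in WT core // cell-free. Between genotype labels no member of this list passed an adjusted p of 0.05 in edgeR in any of the 3 settings. At an unadjusted p under 0.05 there were 1 higher and 1 lower in the hydrogel (1.79% and 0.867% of all genes). In cores with fibroblasts 1 was higher (4.64% of all genes), and in cell-free cores 0 passed. The higher gene in the hydrogel was Il1a (1.23 ± 0.49), where Ppbp, a platelet chemokine of the same cluster, also passed the rule (1.46 ± 0.62).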

How the data were processed

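The authors sequenced rRNA-depleted, stranded total RNA and estimated counts per gene with kallisto 0.46.1 in SUSHI. The assembly named is GRCm39. Which annotation release was used is not given. The deposited values are estimated counts, written as whole numbers without normalization. Of 25700 gene IDs, 25587 had a symbol in the annotation of GRCm38 used here for names. Counts were filtered (filterByExpr), scaled by TMM and tested with edgeR 4.0.16 (quasi-likelihood, R 4.3.3) on the groups compared, without a block. SE is the absolute log2 fold change over the square root of F. The study's rule was kept for its 2 comparisons of genotypes with fibroblasts, and an adjusted p (Benjamini-Hochberg over all genes) for the others. Permutation tests used log2 CPM with a prior count of 2.

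The members and gene lists were chosen with earlier results of these data known. Genes were named by a rule: the 5 members, Il6, up to 4 genes of a list with the lowest p per comparison, and the 3 most like each member. Replicate numbers paired samples where every pair's deviations correlated above 0.1: hydrogels (0.26 to 0.60), KO cores (0.21 to 0.39), WT cores with macrophages against cell-free (0.19 to 0.34) and against fibroblasts (0.17 to 0.25). The assembloid code did so for core and hydrogel (0.23 to 0.42), which the study says share a mouse. Alternatives were DESeq2 1.42.0, RLE factors, no filter, 1 fit of all 7 groups, blocks by replicate, run or assembloid code, the other threshold, TMM in place of total-count levels, log2 of CPM plus 0.1 in the permutation test, and each sample left out. A block by the level of Y-linked transcripts was chosen after seeing the data. The code was tested on simulated data.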

Additional observations from a re-analysis of the deposited data

Results flagged for a closer look

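In 6 of the 35 sets of samples formed by 5 members and 7 groups, 1 sample stood apart from the others of its group by Dixon's test, which chance alone gives in about 1 in 20 groups. In 3 of the 6 it was hydrogel replicate 6 labelled KO, at 186 CPM for Cxcl1, 13.3 CPM for Cxcl2 and 3.39 CPM for Ccl20. In WT core // cell-free, Cxcl2 stood apart in replicate 4 with 7.89 CPM. In WT core // fibroblasts, Cxcl2 was set apart by a low value, 1.46 CPM in replicate 3, and Ccl20 by a high one, 2.88 CPM in replicate 2.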

How the results depend on the processing

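Of the 80 counts of members past the threshold under other settings, 68 stayed within 1.5 times the count reported. In the hydrogel, DESeq2 called 4 members and the adjusted p 0 between genotype labels. In cores with fibroblasts the adjusted p also called 0. For macrophages against cell-free, DESeq2, 1 fit of all 7 groups, the run block and the replicate block each called 1. For fibroblasts against cell-free in cores labelled KO, the fit of all groups called 0. For macrophages against fibroblasts, DESeq2, no filter and the block by Y-linked level called 1 each, and the replicate block 2. Leaving out 1 sample gave 2 to 4 calls between genotype labels in the hydrogel and in cores with fibroblasts, 0 to 1 in both macrophage comparisons and in fibroblasts against cell-free in cores labelled KO, 3 to 4 between hydrogel and core in WT and 0 to 3 in those labelled KO. The causes were not tested.

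Replicate numbers did not pair the cores of the genotype comparisons or WT fibroblasts against cell-free (lowest correlations -0.18, -0.0014 and 0.067). There the block added Cxcl3 in cores with fibroblasts (0.94, unadjusted p = 0.00829 in edgeR, 3 members called) and changed no other call. In the paired comparisons it changed no call beyond those given above.

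Changes of sign were seen in log2 fold changes that passed no threshold. Between hydrogel and core labelled KO, Ccl20 was 0.021 in DESeq2, 0.023 with RLE factors, 0.092 without a filter, 0.019 in the fit of all groups and 0.059 with the assembloid block, and Cxcl2 was 0.064 without a filter. Cxcl1 in WT fibroblasts against cell-free was 0.011 with the Y-linked block. On log2 CPM plus 0.1, macrophages differed from fibroblasts by 0.10 for Cxcl2 and 0.10 for Cxcl3.

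With 1 sample left out, Cxcl5 ranged from -0.018 to 0.57 between hydrogels of both labels, and Cxcl3 from -0.12 to 0.59 between cell-free cores. For WT fibroblasts against cell-free, Cxcl1 ranged from -0.28 to 0.22 and Cxcl2 from -0.95 to 0.12, and in cores labelled KO from -0.12 to 0.84 and from -0.83 to 0.17. Cxcl2 ranged from -1.07 to 0.024 for macrophages against cell-free and from -0.27 to 0.055 against fibroblasts, where Cxcl3 ranged from -0.32 to 0.34. Between hydrogel and core labelled KO, Cxcl2 ranged from -0.61 to 0.23 and Ccl20 from -0.22 to 0.16. In the interaction Cxcl1 ranged from -0.078 to 0.88, Cxcl2 from -0.69 to 0.89 and Cxcl5 from -0.62 to 0.27. All 35 group levels moved by less than 1 SD with TMM scaling. Cxcl3 and Ccl20 had as few as 7 and 5 counts per library, which limits what could be detected for them.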
